A study of Mus musculus with 6 samples.

Results

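The genes described here are 10 regulators of mitochondrial biogenesis, out of 23279 genes measured in mouse primary myoblasts, the proliferating precursors of muscle fibres. They are the PGC-1 coactivators Ppargc1a, Ppargc1b and Pprc1, the oestrogen-related receptors Esrra, Esrrb and Esrrg, the nuclear respiratory factors Nrf1 and Gabpa, the mitochondrial transcription factor Tfam and the fatty acid receptor Ppara. All 10 were found by symbol, each with 1 probe set. The list was chosen by function, but selected on these same arrays in that their differences between activated and control cultures were known when it was drawn up, so those differences are a description and no test is read from them. The 3 activated cultures were treated with 4-OH tamoxifen in ethanol, and the 3 control cultures with ethanol alone. All 6 came from C57bl6N myoblasts with the Pax7-CreERT2 driver and 1 beta-catenin allele whose exon 3 lies between loxP sites. The labels describe the activated cells as expressing an active form of beta-catenin. RNA was taken from differentiating cells after serum withdrawal, from 3 independent cultures per condition. Whether the cultures came from different animals is not stated, so the errors describe the spread between cultures.

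Treatment and recombination were applied together in every activated culture, so an effect of the drug itself and one of beta-catenin cannot be told apart, and the labels used here give no dose. The submitters checked recombination by PCR of the genotype and by Western blot, which the arrays cannot repeat. 4-hydroxytamoxifen binds oestrogen receptors and is also known as a ligand of the oestrogen-related receptors beta and gamma. RNA was labelled for Affymetrix whole-transcript arrays, 1 per culture. Levels are deposited log2 expression values, on which a difference of 1 is a doubling. No detection calls are given, so whether dim genes lay above background is not known.

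PGC-1alpha, the protein of Ppargc1a, does not bind DNA itself. It is recruited by transcription factors such as the oestrogen-related receptors, PPARs, MEF2 factors and NRF1, and raises transcription of nuclear genes for respiration and fatty acid oxidation. NRF1 and GABP in turn drive Tfam, whose protein enters mitochondria, packages mitochondrial DNA and helps to start its transcription. In skeletal muscle PGC-1alpha is known for its induction by exercise and for promoting oxidative fibre properties.

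Promoter windows of 250 bases before RefSeq start sites (GRCm38.p6) were used for 9 of the 10 genes, 14 windows in all. Ppargc1b was left out of this search, so the counts of the 14 say nothing about it. Windows were searched on both strands for the E-box CANNTG, bound by MyoD-type factors, the cAMP response element TGACGTCA and its half-site TGACG, and the MEF2-type pattern, which is CTA and TAG with 4 free bases between them. The TCF/LEF core CTTTGA, the NRF1 site (GCGCA, any base, GCGC), the GABP/ETS site CCGGAAG and the oestrogen-related receptor site TNAAGGTCA were searched in the same way. Windows of Ppargc1a and Esrrg are shown because they were the members whose groups did not overlap, and those of Tfam and Gabpa because they carry the GABP/ETS letters. For Esrrg only the windows with the MEF2-type or TCF/LEF letters are shown. A further Esrrg window, with an E-box and neither of these, is not. The Ppargc1a window held 6 E-boxes (capitals) and 1 cAMP response half-site (the last capitals, CGTCA, read on the other strand), which do not overlap. Of all 32851 windows, 66.2% held at least 1 E-box, 0.274% held 6 or more and 17.8% held the half-site. The cut of 6 is the count in the Ppargc1a window itself, so nothing about rarity is read from that share. Of the 14 windows, 9 held an E-box and 3 the half-site. Neither of the 2 Esrrg windows shown is the full 250 bases: each is the last 100 before its start. Capitals mark the MEF2-type letters in the first (1 of the 14 windows, 3.2% of all) and the TCF/LEF core in the second (1 of the 14, 13.8% of all). The Tfam and Gabpa sequences are the last 120 bases, with the GABP/ETS letters in capitals, which 2 of the 14 and 6.91% of all windows held. The full cAMP response element and the oestrogen-related receptor letters were in 0 of the 14 windows, and in 1.55% and 1.14% of all windows. The NRF1 letters were in 1 of the 14, that of Ppara, against 3.74% of all. These matches describe letters and not binding.
Ppargc1a, 250 bases, chr5:51567726-51567975, minus strand: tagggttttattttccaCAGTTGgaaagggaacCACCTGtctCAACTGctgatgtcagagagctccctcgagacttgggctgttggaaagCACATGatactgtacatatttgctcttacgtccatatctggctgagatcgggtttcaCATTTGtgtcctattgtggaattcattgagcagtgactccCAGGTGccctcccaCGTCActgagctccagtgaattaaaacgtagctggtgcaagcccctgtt
Esrrg, first start shown, chr1:187608906-187609005, plus strand: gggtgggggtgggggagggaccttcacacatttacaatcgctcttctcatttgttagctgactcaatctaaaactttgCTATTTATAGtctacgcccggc
Esrrg, second start shown, chr1:187652141-187652240, plus strand: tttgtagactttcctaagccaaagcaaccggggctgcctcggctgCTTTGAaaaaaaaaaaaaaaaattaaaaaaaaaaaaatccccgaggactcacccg
Tfam, chr10:71238045-71238164, minus strand: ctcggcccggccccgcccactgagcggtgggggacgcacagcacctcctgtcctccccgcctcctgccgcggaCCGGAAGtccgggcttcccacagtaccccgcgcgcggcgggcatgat
Gabpa, chr16:84835004-84835123, plus strand: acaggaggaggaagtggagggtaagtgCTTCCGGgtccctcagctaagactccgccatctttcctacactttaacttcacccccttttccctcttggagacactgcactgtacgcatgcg

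Among the 3 coactivators, Ppargc1a differed most. It was at 5.88, 6.67 and 5.61 in activated cultures 1, 2 and 3, against 4.04, 4.49 and 3.25 in control cultures 1, 2 and 3. Every activated array lay above every control array. Its log2 difference of 2.13 ± 0.40 (SE), or 4.37-fold, comes from means of 6.05 ± 0.55 in activated and 3.93 ± 0.62 in control cultures (SD, n = 3 each). Within same-numbered cultures it was 1.84, 2.19 and 2.36. The difference was 2.15 after repeated quantile normalization and 2.16 after cyclic loess, and leaving out 1 array gave 1.79 to 2.41. Repeated here means run on the deposited values. Whether these had been quantile normalized before is not stated.

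Ppargc1b, the close relative PGC-1beta, which also coactivates oestrogen-related receptors, was at 6.27, 6.71 and 6.86 in activated cultures, against 4.87, 5.87 and 6.32 in control cultures. The groups overlapped, since activated culture 1 lay below control culture 3. The log2 difference was 0.93 ± 0.39 (SE), and 1.40, 0.84 and 0.54 within same-numbered cultures. It was 0.52 without control replicate 1. Pprc1, the growth-induced member of the family that works with NRF1, was at 6.87, 7.43 and 8.25 in activated cultures, against 7.09, 7.78 and 8.71 in control cultures. Both number 3 cultures were the highest of their group and both number 1 cultures the lowest, and the groups overlapped over most of their range. Its difference was -0.34 ± 0.49 (SE), and -0.22, -0.35 and -0.46 within same-numbered cultures. It was -0.66 after repeated quantile normalization and 0.08 without control replicate 3. The 3 coactivators thus gave 3 different patterns: apart, overlapping and higher, and overlapping and lower.

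**Figure D1:**
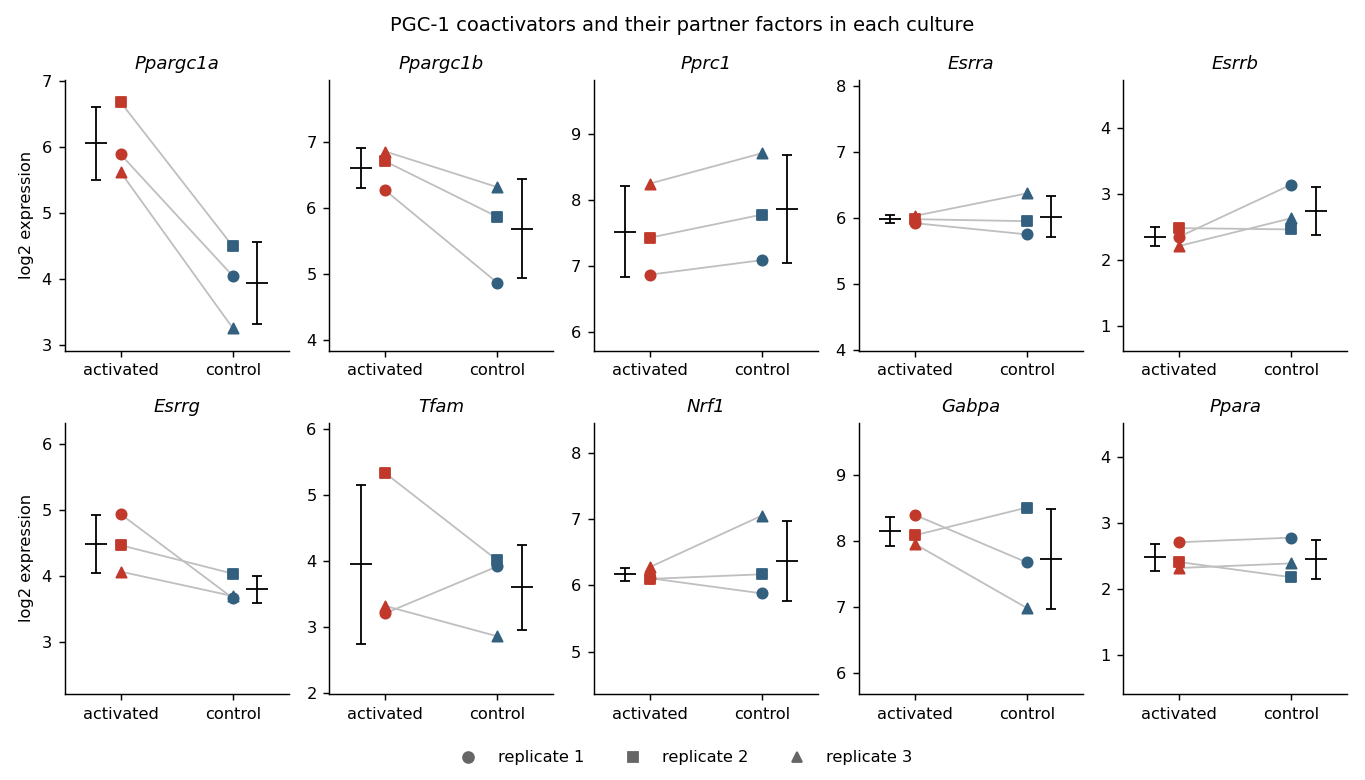
Log2 expression of the 10 regulators in each culture, activated at left and control at right in each panel, with grey lines joining same-numbered cultures and bars giving mean and SD (n = 3 each). All panels span the same log2 range. The groups are apart for Ppargc1a and, by 4.06 against 4.03, for Esrrg.

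The oestrogen-related receptors are orphan nuclear receptors through which PGC-1 coactivators reach many respiratory genes. Esrrg, the isoform enriched in oxidative muscle, was at 4.93, 4.46 and 4.06 in activated cultures, against 3.66, 4.03 and 3.69 in control cultures. The groups did not overlap, but the lowest activated value and the highest control value were 4.06 and 4.03. Its log2 difference was 0.69 ± 0.28 (SE), and 0.47 without activated replicate 1, which had the highest value. Esrra, the most widely expressed isoform, was at 5.92, 5.98 and 6.03 in activated cultures, against 5.75, 5.95 and 6.37 in control cultures. The activated values lay inside the control range, and the difference was -0.05 ± 0.23 (SE). Its sign was positive after median centring (0.08) and without control replicate 3 (0.13). Esrrb, known for its role in stem cells and placenta, was at 2.35, 2.48 and 2.21 in activated cultures, against 3.14, 2.46 and 2.63 in control cultures. The difference was -0.40 ± 0.25 (SE), with overlap between activated culture 2 and control culture 2.

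The factors between the coactivators and mitochondrial DNA did not separate the groups. Nrf1, which binds promoters of respiratory and mitochondrial import genes, was at 6.11, 6.10 and 6.28 in activated cultures, against 5.88, 6.17 and 7.06 in control cultures. Only control culture 3 stood away from the other values, and the difference of -0.21 ± 0.33 (SE) turned to 0.14 without it. Gabpa, the DNA-binding subunit of GABP (also called NRF-2), was at 8.40, 8.09 and 7.96 in activated cultures, against 7.68, 8.51 and 6.99 in control cultures. Control culture 2 was the highest of all 6 and control culture 3 the lowest. The difference was 0.42 ± 0.39 (SE), 0.16 after repeated quantile normalization, 0.07 after cyclic loess and 0.06 without control replicate 3. Tfam was at 3.21, 5.33 and 3.32 in activated cultures, against 3.92, 4.01 and 2.86 in control cultures. Activated culture 2 alone lay above the control range, and the difference of 0.36 ± 0.61 (SE) turned to -0.33 without it and was -0.01 without control replicate 3. Ppara, the receptor that induces fatty acid oxidation genes in liver and muscle, was at 2.71, 2.41 and 2.32 in activated cultures, against 2.78, 2.18 and 2.39 in control cultures. Its difference was 0.03 ± 0.25 (SE), and -0.10 without control replicate 2.

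**Figure D2:**
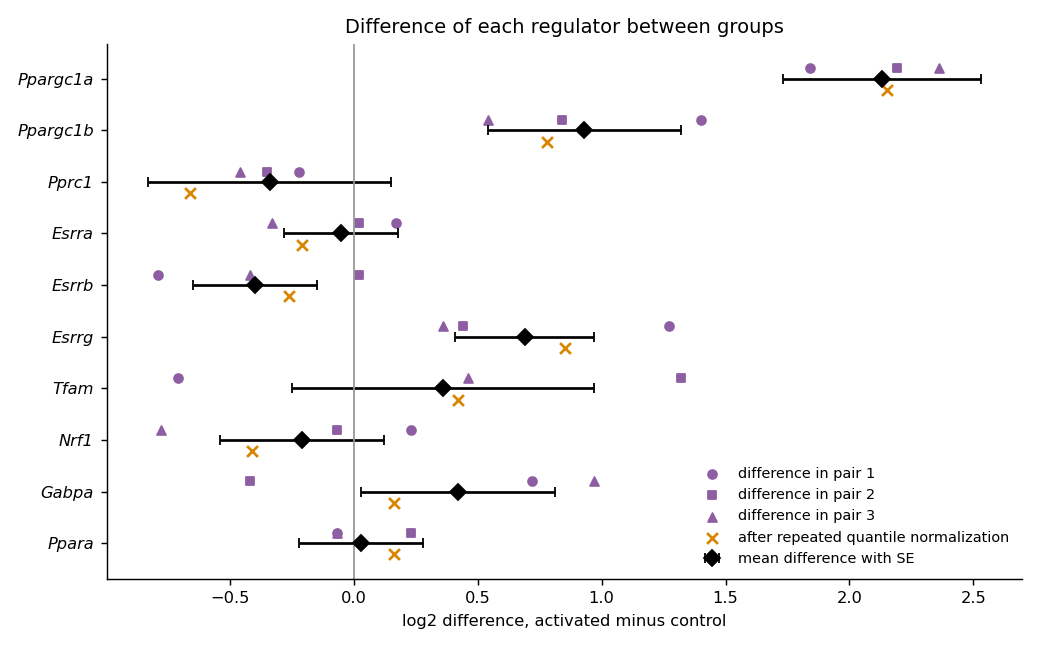
Log2 difference, activated minus control, of each regulator: diamonds with SE for the deposited values, small symbols for the 3 same-numbered pairs and crosses after repeated quantile normalization. Ppargc1a lies at 2.13 with all pairs between 1.84 and 2.36, while Esrra, Tfam, Nrf1, Gabpa and Ppara have pairs on both sides of 0, as does Esrrb.

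Over the 10 genes, activated cultures were higher for 6 and lower for 4. The median difference was 0.19, against -0.08 over all 23279 genes, 0.01 without activated replicate 2 and -0.07 without pair 2. Every activated array lay above every control array for 2 of the 10, where 5.4% of all genes did so, and below for 0 of the 10, where 7.4% did. In all 3 same-numbered pairs, 3 of the 10 were higher (Ppargc1a, Ppargc1b and Esrrg), beside 16.6% of all genes, and 1 was lower (Pprc1), beside 25%. In limma's fit across all genes, 0 of the 10 passed an adjusted p of 0.05, beside 0% of all genes, while 3 of the 10 were higher at an unadjusted p under 0.05, beside 4.44%, and 0 were lower, beside 3.42%. With the replicate number as a block, 1 of the 10 passed, Ppargc1a, beside 0.12% of all genes that were higher and passed and 0.0129% that were lower and passed. At an unadjusted p under 0.05 with the block, 3 of the 10 were higher, beside 9.63%, and 0 lower, beside 7.01%. The adjusted count was 0 with the block after repeated quantile normalization, and 0 without pair 1 or without pair 2. Since this contrast was known when the list was made, nothing is read from these counts.

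Control cultures 1 and 3 often stood at the edge. Control culture 3 was the highest of the 6 arrays for Pprc1, Esrra and Nrf1 and the lowest for Ppargc1a, Tfam and Gabpa. Control culture 1 was the lowest for Ppargc1b, Esrra, Esrrg and Nrf1 and the highest for Esrrb and Ppara. The number 2 arrays had the widest spread of values, with an SD over all probe sets of 2.12 in activated and 2.01 in control culture 2. The other 4 were at 1.72 to 1.96. Each activated array also had a wider spread than the control of its number, at 1.88 against 1.72, 2.12 against 2.01 and 1.96 against 1.76. The part of this spread in the differences of bright and dim genes was not tested. Array medians were between 4.04 and 4.36, and arrays correlated across genes at 0.862 to 0.962. Of 10 myoblast markers 8 were higher and 2 lower, with a median difference of 0.85. The myogenic factor Myod1 was at 8.77 to 10.23 in activated and 8.64 to 9.67 in control cultures and Des, the muscle intermediate filament, at 10.30 to 11.31 in activated and 8.77 to 9.81 in control cultures. Against the list, Vcam1, an adhesion molecule, differed by -1.38 with the groups apart, and the satellite cell factor Pax7 by -0.60. Of 11 measured readouts of beta-catenin, 6 were higher and 5 lower, with a median difference of 0.12 and of -0.07 without activated replicate 1. For 3 of the 11 every activated array lay above every control array (5.4% of all genes). Axin2, a feedback gene of the pathway, was at 5.50, 5.85 and 6.54 in activated cultures and 4.55, 3.81 and 4.58 in control cultures. Fst, also apart, differed by 2.95 ± 0.28 (SE) and Nkd1, apart too, by 0.94 ± 0.21. With overlap, Lef1 differed by 0.86, Ccnd1 by 0.60 and Znrf3 by 0.12. Among the lower readouts, Myc differed by -0.47 and Sp5, Notum, Rnf43 and Lgr5 by -0.13, -0.12, -0.19 and -0.15.

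Partners and regulators of PGC-1 were set beside these genes from a list of 50, of which 49 were measured. Of these, 36 were higher and 13 lower, the median difference being 0.28, and 0.15 after repeated quantile normalization. Of all genes 40.3% were higher, which is the share beside which each list's count stands. For 11 of the 49 every activated array lay above every control array (5.4% of all genes), and for 0 below (7.4%). In limma's fit 0 passed in either direction. At an unadjusted p under 0.05, 9 were higher and 1 lower, where 4.44% of all genes were higher and 3.42% lower. With the block 14 were higher at that threshold, where 9.63% of all genes were, and 1 passed the adjusted test, the MEF2 factor Mef2c. Nr1d1, the clock repressor REV-ERBalpha, which is also known to promote mitochondrial content in muscle, was at 7.34, 7.84 and 8.04 in activated cultures, against 5.94, 6.44 and 6.57 in control cultures. Its difference was close to the same in each pair, at 1.40, 1.40 and 1.47. Camk2a, a calcium-dependent kinase, differed by 1.44 ± 0.31 (SE), Mef2a, a partner of PGC-1alpha at muscle promoters, by 0.99 ± 0.26 (0.61 after repeated quantile normalization and 0.50 after cyclic loess) and Prkaa2, the muscle catalytic subunit of AMP kinase, by 1.87 ± 0.54. Prkaa2 was at 6.35, 6.36 and 4.32 in activated cultures, against 3.84, 3.99 and 3.58 in control cultures, so its size rests on activated cultures 1 and 2. Among the other AMP kinase subunits, named after their values were seen, the groups were apart for Prkag3, at 1.56 ± 0.55 (SE) but 0.11 in pair 3, and for Prkab2, at 0.73 ± 0.29. They overlapped for the other 4 measured, Prkaa1 at 0.38, Prkab1 at -0.18, Prkag1 at 0.50 and Prkag2 at 0.21.

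Other nuclear receptors and modifiers differed among themselves. Pparg, best known from adipocytes, was at 5.57, 5.55 and 4.13 in activated cultures, against 3.58, 4.04 and 3.78 in control cultures, a difference of 1.29 ± 0.41 (SE). Nrip1, a corepressor of oestrogen-related receptors and PPARs, was at 7.12, 7.15 and 7.08 in activated cultures, against 6.62, 6.47 and 4.35 in control cultures. Its groups were apart, and control culture 3 was far below the other 5. The difference was 0.58 without it and 1.31 with it. Ppard, the main PPAR of muscle, differed by 0.22 ± 0.35 (SE), with -0.14 without control replicate 1. Sirt1, the deacetylase of PGC-1alpha, differed by 0.23 ± 0.30, with -0.02 after repeated quantile normalization. Gabpb1, the partner subunit of Gabpa, differed by -0.35 ± 0.26 (-0.22 without control replicate 3), and Perm1, a muscle gene downstream of PGC-1 and the oestrogen-related receptors, by -0.41 ± 0.33 (-0.08 without control replicate 3).

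The machinery of mitochondrial DNA showed little difference as a list. Of 19 genes 18 were measured, 13 were higher and 5 lower, with a median log2 difference of 0.05 and of -0.06 without activated replicate 2. None passed limma's adjusted test in either direction, with or without the block. At an unadjusted p under 0.05 there were 0 without the block, where 4.44% of all genes were higher and 3.42% lower. With the block there was 1, higher, where 9.63% of all genes were. Tfb2m, a transcription factor of mitochondrial DNA, was at 2.24, 2.82 and 5.25 in activated cultures, against 1.99, 1.86 and 1.46 in control cultures. Of the 18 measured it was the only 1 whose groups were apart, beside 5.4% of all genes that were apart and higher. Its difference of 1.67 ± 0.72 (SE) rests on activated culture 3, without which it was 0.76. On every other array Tfb2m lay below the array medians of 4.04 to 4.36, and whether it was above background there is not known. Twnk, the mitochondrial helicase, differed by 0.66 ± 0.38 (SE), but by -0.06, 0.20 and 1.82 in the 3 pairs and by 0.27 without control replicate 3. Polg, the mitochondrial DNA polymerase, differed by -0.38 ± 0.30 (-0.11 without control replicate 3) and the nuclease Exog by -0.28 ± 0.22. Polrmt, the mitochondrial RNA polymerase, differed by 0.06 ± 0.25, with -0.16 after repeated quantile normalization, and Tfb1m, an rRNA methyltransferase, by 0.22 ± 0.29, with -0.05 without activated replicate 1.

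Nuclear-encoded subunits of the respiratory chain and ATP synthase, which are classical PGC-1alpha targets, were mostly higher. Of 79 listed, 69 were measured, 63 were higher and 6 lower, with a median log2 difference of 0.97. The median was 0.68 after repeated quantile normalization, 0.57 after cyclic loess and 0.48 without activated replicate 2. For 2 of the 69 every activated array lay above every control array (5.4% of all genes), and for 0 below (7.4%). In either direction 0 passed limma's adjusted test, with or without the block. At an unadjusted p under 0.05, 7 were higher without the block (4.44% of all genes), and 48 were higher and 1 lower with it (9.63% and 7.01% of all genes). The list mean was 8.50, 9.63 and 8.21 in activated cultures, against 7.98, 8.71 and 6.93 in control cultures. Control culture 2 thus lay above activated cultures 1 and 3, while each activated culture lay above the control of its number. In all 3 pairs 49 of the 69 were higher and 2 lower, where 16.6% and 25% of all genes were. The medians by complex were alike, at 0.93 for complex I, 0.91 for complex II, 0.96 for complex III with cytochrome c, 1.06 for complex IV and 0.97 for ATP synthase.

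Cyc1, cytochrome c1 of complex III, was at 8.48, 9.82 and 8.68 in activated cultures, against 7.08, 8.59 and 7.42 in control cultures. Its difference was 1.29 ± 0.49 (SE), and the groups overlapped through control culture 2. The complex II flavoprotein Sdha differed by 1.06 ± 0.43, the ATP synthase beta subunit Atp5b by 1.34 ± 0.54 and the complex I subunit Ndufv1 by 1.03 ± 0.42. Without activated replicate 2 these were 0.60, 0.85 and 0.54. Cycs, cytochrome c itself, was at 5.02, 5.02 and 3.63 in activated cultures, against 5.76, 5.02 and 3.87 in control cultures, a difference of -0.33 ± 0.56 that was 0.14 without activated replicate 3 and 0.11 without control replicate 1. Heart and muscle isoforms of complex IV, named after their values were seen, were among the largest differences of the list: Cox8b at 2.45 ± 1.20 (SE), Cox7a1 at 2.10 ± 0.87 and Cox6a2 at 1.76 ± 0.94. Against the list, Ndufab1, an acyl carrier subunit of complex I, was lower in all 3 pairs, by -1.44, -0.82 and -0.76.

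**Figure D3:**
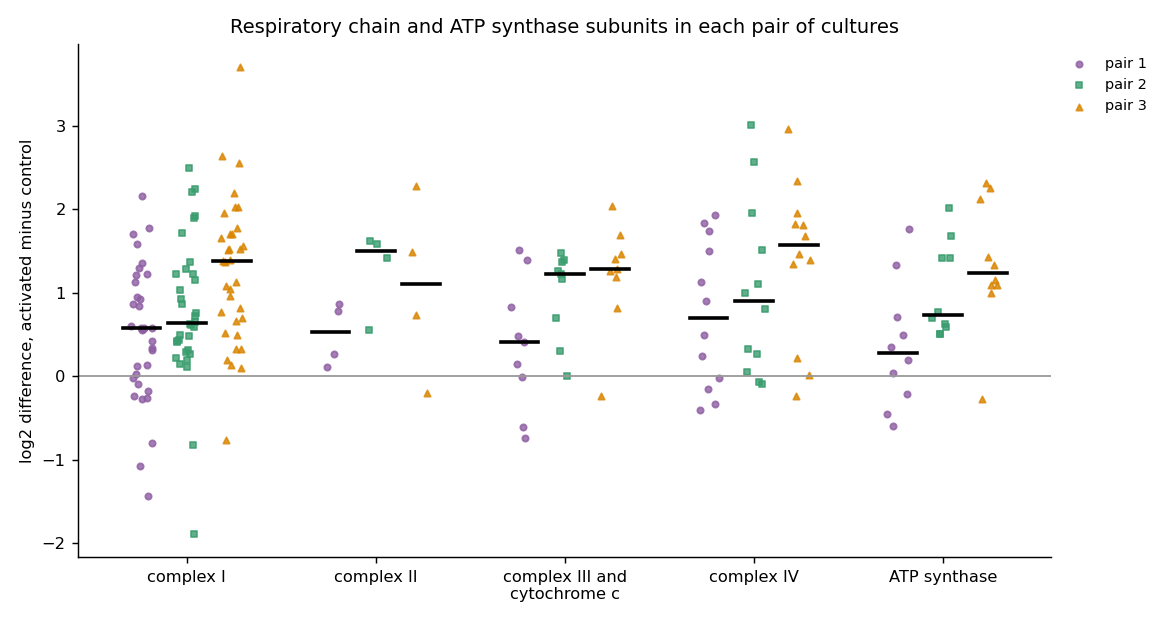
Log2 difference, activated minus control, of each measured respiratory chain and ATP synthase subunit in the 3 same-numbered pairs, by complex, with bars at the medians. Medians over all 69 subunits were 0.49, 0.77 and 1.38 in pairs 1, 2 and 3, and some subunits of each complex except complex II lie below 0 in pair 1.

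In the citric acid cycle 15 of 16 measured genes were higher and 1 lower, with a median log2 difference of 0.77 (0.48 after repeated quantile normalization and 0.45 after cyclic loess). None passed the adjusted test with or without the block. At an unadjusted p under 0.05, 3 were higher without the block and 12 with it, where 4.44% and 9.63% of all genes were. Cs, citrate synthase, a common index of mitochondrial content, was at 8.39, 9.19 and 8.42 in activated cultures, against 7.56, 8.24 and 7.51 in control cultures. The groups were apart and the difference was 0.90 ± 0.32 (SE). Fumarase, Fh1, differed by 0.74 ± 0.31, Dlst of the oxoglutarate dehydrogenase complex by 0.79 ± 0.34 and Dlat of the pyruvate dehydrogenase complex by 0.67 ± 0.28.

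In fatty acid oxidation and among PPAR targets, 29 of 35 genes were measured, 21 were higher and 8 lower, and the median log2 difference was 0.41 (0.02 without activated replicate 2). None passed the adjusted test with or without the block. At an unadjusted p under 0.05, 4 were higher without the block (4.44% of all genes). With it 11 were higher and 2 lower (9.63% and 7.01% of all genes). Every activated array lay above every control array for 3 of the 29 (5.4% of all genes), and below for 1 (7.4%). Among the 3 were Pdk2 and Pdk4, pyruvate dehydrogenase kinases, which divert pyruvate from oxidation. Pdk2 was at 7.52, 7.42 and 6.79 in activated cultures, against 5.37, 6.21 and 4.95 in control cultures, and Pdk4 differed by 1.37 ± 0.41 (SE), with 0.91 without control replicate 3. Acadl, a long-chain acyl-CoA dehydrogenase, was at 8.95, 9.59 and 8.65 in activated cultures, against 7.61, 8.42 and 6.30 in control cultures, and its difference of 1.62 was 1.05 without control replicate 3. Etfdh, which passes electrons from fat oxidation to ubiquinone, differed by 0.93 ± 0.34, and Ucp3, the muscle uncoupling protein, by 0.14 ± 0.30, with -0.09 without control replicate 2. Against the list, and named after their values were seen, Cpt1a, the liver-type carnitine palmitoyltransferase, was lower in all 3 pairs by -0.52, -1.33 and -0.97. Lpl, lipoprotein lipase, was at 3.93, 3.99 and 3.93 in activated cultures, against 5.28, 7.87 and 4.32 in control cultures.

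Of 30 muscle genes listed as PGC-1alpha responsive, 29 were measured, 23 were higher and 6 lower, with a median log2 difference of 0.59. Whether each listed gene, Fnip1 and Kbtbd13 among them, responds to PGC-1alpha was not tested. None passed the adjusted test with or without the block. At an unadjusted p under 0.05, 7 were higher without the block and 15 with it, where 4.44% and 9.63% of all genes were. The list holds slow contractile genes and myoglobin, and for the 21 measured genes without them the median was 0.42. Mb, myoglobin, was at 8.10, 9.82 and 7.45 in activated cultures, against 6.89, 6.96 and 5.43 in control cultures, and its difference of 2.03 was 1.35 without activated replicate 2. Myh7, the slow myosin heavy chain, differed by 2.15 ± 0.59 (SE), but by 0.47 in pair 3. The slow and cardiac troponin Tnnc1 differed by 1.28 ± 0.45, but by 0.30 in pair 1. Fnip1, a folliculin partner that binds AMP kinase, differed by 0.67 ± 0.20. For mitochondrial fusion, fission and import 19 of 21 measured genes were higher and 2 lower, with a median of 0.42, but 0.13 after repeated quantile normalization, 0.06 after cyclic loess and 0.22 without control replicate 3. The fusion protein Mfn2 was at 6.78, 7.59 and 6.84 in activated cultures, against 5.93, 6.56 and 6.09 in control cultures, and its relative Mfn1 differed by 0.75 ± 0.28. Mief2, a receptor for the fission protein DRP1, differed by 1.05 ± 0.36 (0.66 without activated replicate 2), and the prohibitin Phb2 by 0.80 ± 0.39. Mitochondrial ribosomal proteins were higher for 28 of 30 genes, with a median of 0.56 and of 0.21 without activated replicate 2. The members with the smallest p, Mrpl4, Mrps10, Mrps7 and Mrps18a, differed by 0.67, 0.45, 0.83 and 0.85. Without activated replicate 2, Mrps7 differed by 0.28 and Mrps18a by 0.43. In neither of these lists did a gene pass the adjusted test with or without the block. At an unadjusted p under 0.05, 3 fusion, fission and import genes were higher without the block and 5 with it, and 0 ribosomal genes without the block and 10 with it. Of all genes 4.44% were higher at that threshold without the block and 9.63% with it.

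**Figure D4:**
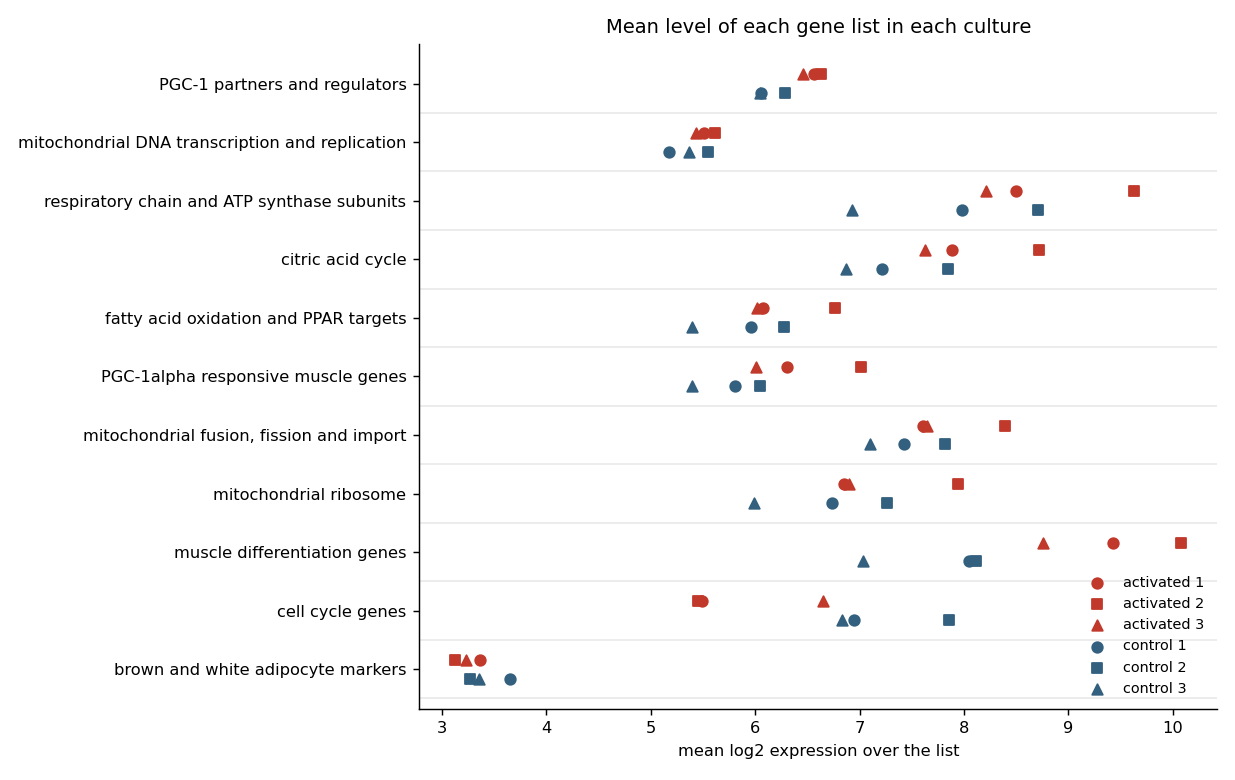
Mean log2 expression of each gene list in each culture, activated above control, with a symbol for each replicate number. For the respiratory chain, citric acid cycle, fatty acid oxidation, import and ribosome lists the highest control mean is culture 2 and exceeds at least 1 activated mean, whereas the muscle differentiation list is apart, at 8.76 to 10.08 against 7.03 to 8.12.

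Muscle differentiation genes were mostly higher too. Of 26 differentiation genes 25 were higher, with a median log2 difference of 1.69. Their mean was 9.43, 10.08 and 8.76 in activated cultures, against 8.05, 8.12 and 7.03 in control cultures. For 14 of the 26 every activated array lay above every control array (5.4% of all genes), and for 0 below (7.4%). Myog, the transcription factor of differentiation, was at 9.36, 11.33 and 10.01 in activated cultures, against 8.68, 8.85 and 6.51 in control cultures, and its difference of 2.22 was 1.47 without control replicate 3. Ckm, muscle creatine kinase, was not higher, at 4.82, 4.14 and 4.28 in activated cultures, against 4.88, 4.64 and 4.53 in control cultures. These values lie near the array medians of 4.04 to 4.36, so whether Ckm followed the list cannot be told from them. Cell cycle genes were lower for 18 of 19, with a mean between 5.45 and 6.65 in activated and between 6.83 and 7.86 in control cultures. The part of differentiation state in the difference of Ppargc1a was not tested, and in bulk cultures fewer cells of a type and less RNA per cell cannot be told apart.

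Markers of other cell types are given for comparison, and their part in the difference of Ppargc1a was not tested. Ucp1, the uncoupling protein of brown adipocytes, was at 2.89, 2.89 and 3.03 in activated cultures, against 3.48, 2.81 and 2.91 in control cultures. The mean of 11 measured adipocyte markers was 3.13 to 3.37 in activated and 3.27 to 3.65 in control cultures, with 2 of 11 higher. Their median difference was -0.15, near the -0.08 of all genes, and 0.01 after repeated quantile normalization. Means of fibroblast markers were 3.50 to 3.68 in activated and 3.80 to 3.97 in control cultures, those of endothelial markers 3.03 to 3.35 and 3.30 to 3.56, and those of leukocyte markers 3.12 to 3.43 and 3.15 to 3.77. The medians of these lists were -0.15, -0.30 and -0.14, the first turning to 0.02 after cyclic loess. Smooth muscle and pericyte markers averaged 5.09 to 5.29 in activated and 5.08 to 5.17 in control cultures, and neural and Schwann markers 3.86 to 4.36 and 4.06 to 4.20. The smooth muscle median of -0.10 turned to 0.04 after repeated quantile normalization, 0.06 after cyclic loess and 0.03 after median centring, and the neural median was -0.44. Of the 10 smooth muscle and pericyte markers 4 were higher and 6 lower. Tagln differed by 0.68 with the groups apart, Acta2 by 1.08, Abcc9 by 1.26 and Cspg4 by 0.55, while Rgs5 differed by -1.78 and Notch3 by -0.57. Of the 8 measured neural and Schwann markers 2 were higher and 6 lower. Tubb3 was apart and higher, at 8.56 to 9.19 in activated and 4.60 to 7.60 in control cultures. Mbp and Sox10 were apart and lower, by -0.69 and -0.52.

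The genes most like Ppargc1a over the 6 arrays were found by the root mean square difference between mean-centred log2 values, over all 23278 other genes. The closest was Suox, the sulfite oxidase of the mitochondrial intermembrane space, with a root mean square difference of 0.15. It was at 6.75, 7.90 and 6.46 in activated cultures, against 5.21, 5.55 and 4.17 in control cultures. It was followed by the growth factor Tgfb3 (0.20), the Z-disc protein Ldb3 (0.21), the myosin-binding protein Mybph (0.22), the myofibril assembly protein Nrap (0.24), Katnbl1 (0.26), sarcalumenin Srl (0.26), a calcium-binding protein of the sarcoplasmic reticulum, and Fam171a2 (0.28). With the sign turned, the closest were Depdc1a (0.25), a mitotic protein, the formin Diaph3 (0.32), the microRNA gene Mir181b-2 (0.33) and the DNA glycosylase Neil3 (0.34). All these genes differ between the groups by about as much as Ppargc1a does, which the measure rewards. Of the 8 alike genes, 4 were again among the 8 closest after repeated quantile normalization, and 2 when genes were ordered by Pearson correlation. No other regulator was near: the closest of the 9 was Esrrg, at place 1891 with a root mean square difference of 0.86.

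**Figure D5:**
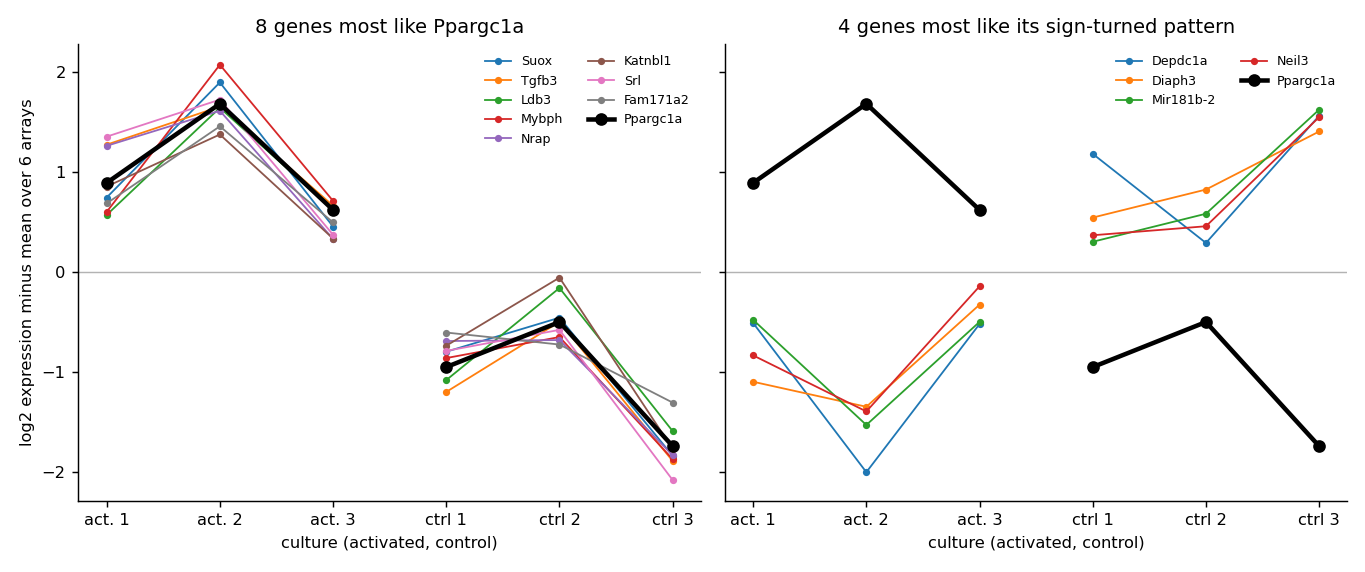
Log2 expression minus the mean over the 6 arrays, for Ppargc1a (thick black line) with the 8 most alike genes at left and with the 4 genes closest to its sign-turned pattern at right, activated cultures before control cultures. Ppargc1a and its 8 neighbours are highest in activated culture 2 and lowest in control culture 3, and each neighbour lies at a root mean square difference of 0.15 to 0.28 from Ppargc1a.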

How the data were processed

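The deposited table holds log2 expression values per probe set, and the submitters' processing notes name RMA and Partek, without versions or roles. How the authors ran them and the genome build remain unstated in the labels. Of 24479 probe sets, 23281 had 1 symbol in the platform annotation, 0 had several and 1198 had none. For 2 symbols with several probe sets the brighter was used, leaving 23279 genes, of which 23155 had their Entrez number in RefSeq's gene table (GRCm38.p6). The activated and control arrays were compared with limma 3.58.1 (R 4.3.3), fitting their difference with two-sided moderated tests and Benjamini-Hochberg adjustment over all genes, and no filter. The fit was run on simulated data with independent noise on each array. These lack the shared deviation of same-numbered cultures given below, so nothing about the real arrays is read from that run. Errors of differences are limma's SE, and the number of arrays limits precision.

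Same-numbered cultures deviated together from their group means (correlations of 0.38, 0.49 and 0.45 across genes), so the number, which comes from the sample titles, was taken to pair them; a block on it was fitted as an alternative. Named were all 10 regulators, the 4 genes of smallest p in each pathway list, a set of 17 measured key genes, and the genes most like Ppargc1a. Cpt1b, also on that rule, is not analysed here. The members and lists were chosen with earlier results of these data known. Listed symbols absent from the annotation were matched through RefSeq synonyms. Alternatives were the block, repeated quantile normalization, cyclic loess, median centring, a filter on dim genes, a trended robust prior and leaving out each array.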

Additional observations from a re-analysis of the deposited data

How the results depend on the processing

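The count of genes past an adjusted p of 0.05 was 0 of 23279 in limma (1034 higher and 796 lower at an unadjusted p under 0.05). It stayed at 0 after repeated quantile normalization, cyclic loess and median centring, with the filter on dim genes (log2 of 6 or more on at least 3 arrays, which kept 5969 genes and 4 of the 10 regulators, not Ppargc1a) and with the trended robust prior. With the replicate block it was 31, and leaving out 1 array without the block gave 0 to 28, the 28 being without activated replicate 3. Among settings chosen after seeing the data, the block gave 0 after repeated quantile normalization, 0 without pair 1, 0 without pair 2 and 501 without pair 3. Of the 10 regulators, 1 passed with the replicate block and 1 without pair 3, Ppargc1a each time. The cause was not tested. Of the 8 genes most like Ppargc1a, repeated quantile normalization kept 4 and Pearson correlation kept 2. The sign of the difference was the same under all alternatives run for 5 of the 10 regulators (Ppargc1a, Ppargc1b, Esrrb, Esrrg and Gabpa) and for 51 of 57 other named genes. All 8 pathway lists had a median above 0 except that of mitochondrial DNA transcription and replication without activated replicate 1 or 2. Median centring moved the median difference of all genes to 0.04 from -0.08.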

Other observations

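Of the muscle genes listed as PGC-1alpha responsive, some act in antioxidant defence or haem synthesis, and they were picked out after their values were seen. Sod2, the mitochondrial superoxide dismutase, was at 6.69, 8.12 and 6.49 in activated cultures, against 5.96, 7.07 and 4.22 in control cultures. Prdx3, a mitochondrial peroxiredoxin, was at 7.55, 9.56 and 6.89 in activated cultures, against 7.22, 7.37 and 5.36 in control cultures. Catalase, Cat, differed by 0.70 ± 0.55 (SE) on the log2 scale, the glutathione peroxidase Gpx1 by 0.42 ± 0.58, mitochondrial thioredoxin Txn2 by 0.67 ± 0.40 and its reductase Txnrd2 by 0.30 ± 0.30. The groups overlapped for these 6 genes. For Alas1, the first enzyme of haem synthesis, they were apart, at 6.59, 6.91 and 6.61 in activated cultures, against 5.40, 6.48 and 5.71 in control cultures. No gene of the 7 passed limma's adjusted test, with or without the replicate block.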
